A study of Mus musculus with 12 samples.

Results

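The mitochondrial ribosomal protein genes were taken as every gene listed as protein coding whose symbol begins with Mrpl or Mrps followed by a number. 78 of the 54532 genes listed met this rule, and 5 further genes with such a symbol were left out because they are processed pseudogenes. The 78 genes lie on 17 chromosomes of the mouse genome (GRCm38). They were followed in primary CD8+ T cells of wild-type genotype, which were activated and given a non-targeting siRNA (siNTC) or an siRNA against Creb1 (siCreb1), and then kept for 24 h in DMSO or in trans-vaccenic acid (TVA), a long-chain fatty acid of ruminant fat. The 4 groups, siNTC, siNTC + TVA, siCreb1 and siCreb1 + TVA, had 3 libraries each. Every group had thus received an siRNA, and the knockdown was transient and partial. The labels do not say whether the libraries of a group came from separate animals or cultures, so p-values measure only the spread between these libraries.

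Mitochondria carry their own ribosome, which translates the few messenger RNAs encoded in mitochondrial DNA, all of them for subunits of the respiratory chain and the ATP synthase. The ribosomal RNAs are made in the organelle, but every protein of the small and large subunit is encoded in the nucleus, made in the cytosol and imported. Part of these proteins descend from the bacterial ribosome and part were added in the mitochondrial lineage. Activated CD8+ T cells enlarge their mitochondrial compartment and depend on mitochondrial translation for proliferation and effector function. Creb1 encodes CREB, a transcription factor that binds the cAMP response element (CRE) and was knocked down here to ask which effects of TVA depend on it.

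Expression was given as FPKM, fragments normalised to the length of the gene and to the mapped reads of the library. For 73 of the 78 members the listed length equals that of all annotated exons together (GENCODE vM21). The transcripts present can be shorter, so levels of different genes can be set side by side only roughly. The depth recovered from the values ran from 16660234 to 24602484 reads per library. It was higher in the siCreb1 + TVA libraries (21804748 to 24602484 reads) than in the siNTC + TVA libraries (16660234 to 20263843 reads). Without TVA it was also higher in siCreb1 (20760297 to 22192484 reads) than in siNTC (17523623 to 20758033 reads). The part of depth in the differences below was not tested. Creb1 was at 10.3 to 12.4 FPKM in the 6 libraries with siNTC and at 1.17 to 1.81 FPKM in the 6 with siCreb1, a mean of 13.2% left (exact permutation test, two-sided, p = 0.00216, the smallest that 924 divisions of the libraries allow). The 7 CD8 T cell markers summed to 2689 to 2708 FPKM in siNTC, 2645 to 2679 in siNTC + TVA, 2543 to 2548 in siCreb1 and 2532 to 2554 in siCreb1 + TVA. With siCreb1, 5 of these 7 had a negative difference both without TVA and with it. At an adjusted p under 0.05 by limma, 5 were lower without TVA and 3 with it. Of all genes tested, 13.7% and 10.1% passed in these comparisons. Cd8b1 fell by 0.16 without TVA and 0.14 with it (adjusted p = 0.000665 and 0.00224), while Cd8a rose by 0.09 in each. The 12 markers of CD4, B, myeloid, NK and erythroid cells together summed to 16.8 to 18.01, 15.3 to 17.7, 14.5 to 16.3 and 18.6 to 19.5 FPKM in the same order, with Hbb-bs, a globin of red cells, at 0 in 12 libraries. Of these, Lyz2, a lysozyme of myeloid cells, rose with siCreb1 in the presence of TVA (0.40 ± 0.11 SE on the log2 scale, adjusted p = 0.0478). The part of such cells in the differences below was not tested, and in bulk samples fewer cells of a type and less RNA per cell cannot be told apart.

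77 of the 78 genes had a mean of at least 1 FPKM over the 12 libraries and were tested. The median tested member stood at 13.6 FPKM, against 8.17 FPKM for the median of all 11550 genes tested. Members were also short, with a median listed length of 2255 bases against 3738 bases over all genes tested. Counts behind a tested member ran from 167 to 2260 reads in a library. The spread between libraries of a group was close to that of other genes, with a median residual SD of 0.079 on the log2(FPKM + 1) scale for members and 0.076 for all genes tested.

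The highest mean levels belonged to Mrpl34 (63.6 FPKM, range 54.2 to 72.2) and Mrps21 (54.8 FPKM, range 49.3 to 58.1), a protein of each subunit with a bacterial counterpart. Mrpl41 (40.7 FPKM, range 36.0 to 45.9), Mrps23 (39.4 FPKM, range 35.7 to 44.7) and Mrpl24 (38.4 FPKM, range 34.8 to 41.8) followed. The ranges of these last 3 overlap, as do those of Mrpl34 and Mrps21. The lowest tested members were Mrps25 (2.61 FPKM, range 2.15 to 3.03), Mrps10 (2.73 FPKM, range 2.49 to 3.15), Mrpl48 (3.12 FPKM, range 2.88 to 3.42), Mrpl47 (3.37 FPKM, range 2.90 to 4.08) and Mrpl17 (3.39 FPKM, range 3.09 to 3.92). Their ranges overlap in turn, and all lie well below those of the highest members. The proteins are assembled into the ribosome in fixed ratio, whereas the FPKM of their genes spanned from 2.61 to 63.6. The lowest members named here have listed lengths of 4419 to 8152 bases, and the highest named have 607 to 2255 bases. Mean reads per library were 797.5 for Mrpl34 and 357 for Mrps25. The part of the listed length in this order was not tested.

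**Figure D1:**
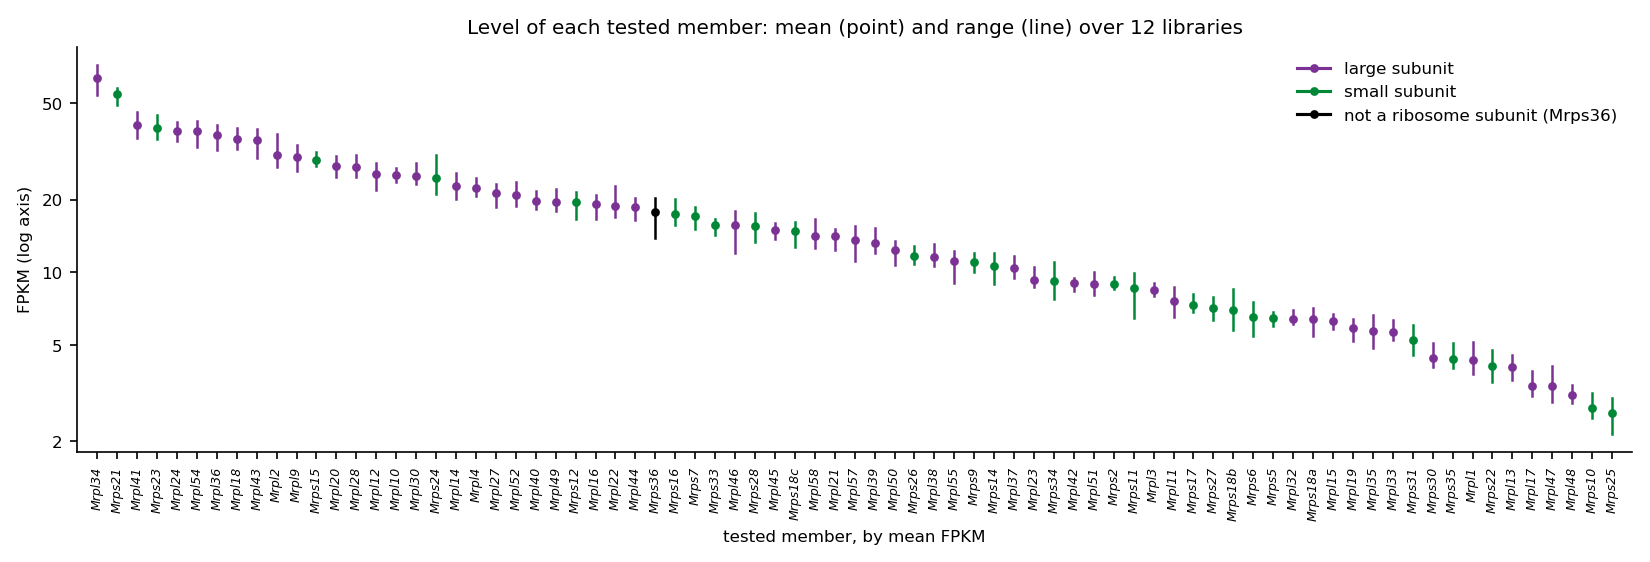
FPKM on a log axis for the 77 tested members in order of mean level, with the mean over 12 libraries as a point and the range as a line, coloured by ribosomal subunit. Large and small subunit genes are mixed along the order, from Mrpl34 at 63.6 FPKM to Mrps25 at 2.61 FPKM, and the lines are short beside the spread between genes.

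Mrpl53 (chr6:83109040-83109939, plus strand) was listed at 0 in all 12 libraries and was not tested. In the GENCODE vM21 annotation 695 of its 790 exon bases (88.0%) are shared with Gm42688, an overlapping gene on the same strand, which was listed at 0.613 to 0.842 FPKM. How the authors treated reads that fit more than 1 gene is not given in the sources used here, the part of the shared bases in the 0 was not tested, and no level can be stated for Mrpl53. Of the 78 members, 33 share exon bases with another gene, 8 of them with a gene on the same strand, and in 7 the shared part exceeds 25% of the exon bases.

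The summed FPKM of the members was 1286, 1330.2 and 1308 in the siNTC libraries and 1343, 1301 and 1302 in siNTC + TVA. It was 1233, 1277 and 1267 in the siCreb1 libraries and 1237, 1203 and 1239.6 in siCreb1 + TVA. The sums with siCreb1 thus lay below those with siNTC, without overlap, at either setting of TVA. The sum of FPKM over all genes also differed between libraries, and as a share of it the members took 0.358 to 0.370% in siNTC, 0.348 to 0.382% in siNTC + TVA, 0.358 to 0.369% in siCreb1 and 0.346 to 0.365% in siCreb1 + TVA, ranges that all overlap.

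**Figure D2:**
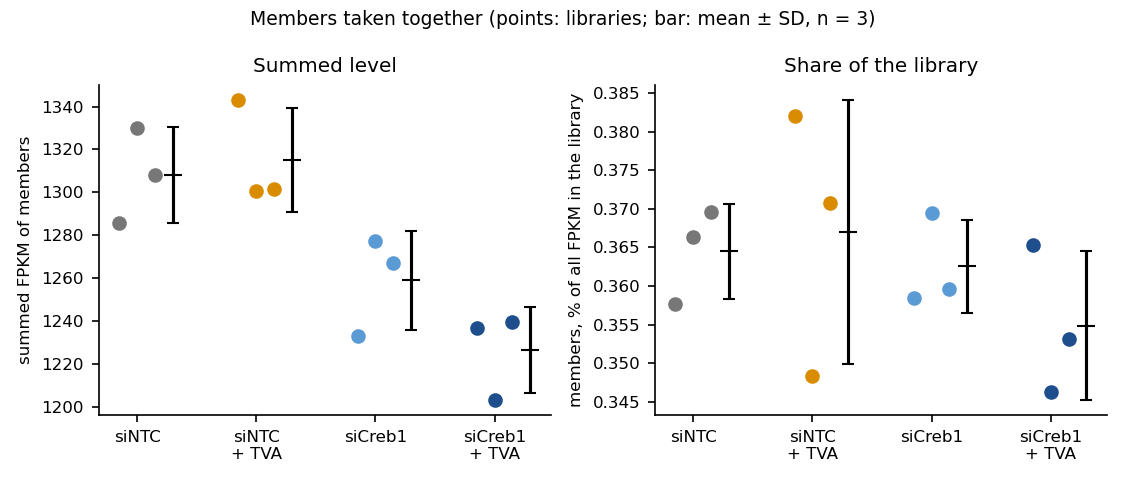
Summed FPKM of the 78 members (left) and the same sum as a percentage of all FPKM in the library (right), with each library as a point and the mean ± SD of 3 libraries as a bar; the axes do not start at 0. On the left the siCreb1 + TVA libraries (1203 to 1239.6) lie below the siNTC + TVA libraries (1301 to 1343), and on the right the 4 groups overlap.

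Creb1 knockdown in the presence of TVA (siCreb1 + TVA against siNTC + TVA) changed 6 members. 5 members fell and 1 rose at an adjusted p under 0.05 by limma, with Mrpl34 falling by 0.28 on the log2 scale and Mrpl24 rising by 0.15. That is 6 of 77 members, where 10.1% of all genes tested were called in this comparison. At an unadjusted p under 0.05, 16 members were lower and 1 was higher. That is 22.1% of members, against a background of 26.2% of all genes tested, both directions together. The median difference of members was -0.07, equal to a change of -4.89% in FPKM + 1, and of all genes tested -0.01. 59 of the 77 members (76.6%) had a negative difference, against 54.0% of all genes tested. With values rescaled to a common sum (TPM), the members' median was -0.03 and that of all genes 0.04. Calls were sensitive to single libraries: the count was 1 without siNTC + TVA replicate 1, 2 without siNTC + TVA replicate 3, siCreb1 + TVA replicate 1 or siCreb1 + TVA replicate 3, and 3 without siCreb1 replicate 3.

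**Figure D3:**
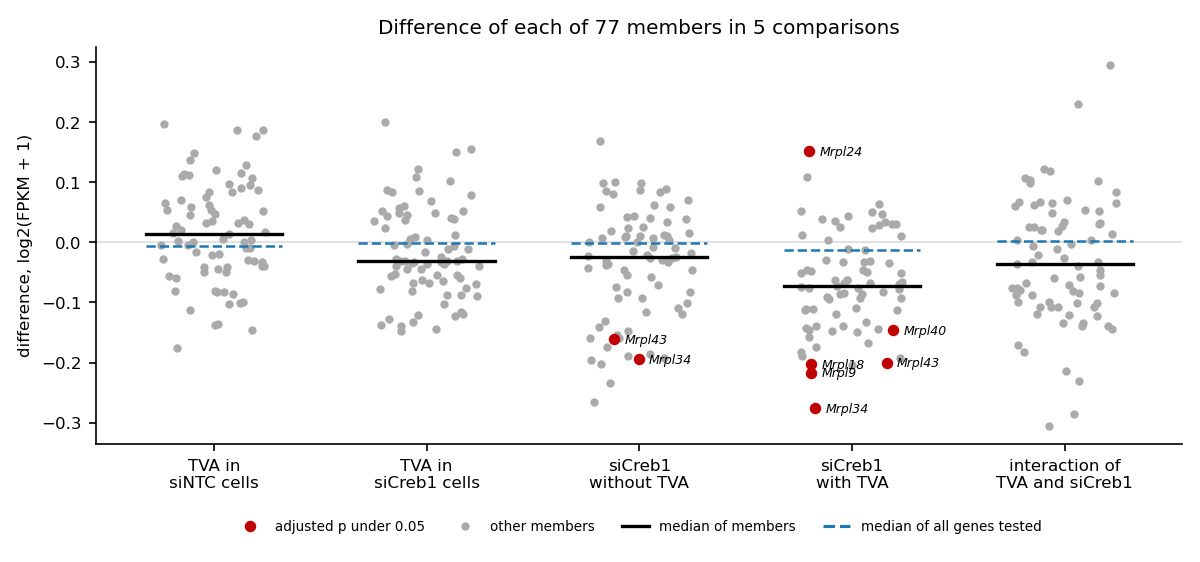
Difference in log2(FPKM + 1) of each of the 77 tested members in the 5 comparisons, with members past an adjusted p of 0.05 in red, the members' median as a black line and the median of all genes tested as a dashed line. Red points appear with siCreb1 without TVA (2) and with TVA (6), and the black line lies at -0.07 with siCreb1 in the presence of TVA.

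Mrpl34 (chr8:71464959-71465747, plus strand) encodes a small protein of the large subunit with a bacterial counterpart. It stood at 72.2, 67.6 and 65.5 FPKM in siNTC, at 70.4, 70.3 and 66.9 FPKM in siNTC + TVA, at 57.2, 60.1 and 61.7 FPKM in siCreb1 and at 60.8, 54.2 and 56.2 FPKM in siCreb1 + TVA. All 6 libraries with siCreb1 lay below all 6 with siNTC. With TVA the difference was -0.28 ± 0.05 (SE, adjusted p = 0.00714 by limma), and without TVA -0.19 ± 0.05 (adjusted p = 0.0241). With TVA it stayed past the threshold under all 22 alternative settings tried, the 12 that leave out a library among them, with differences from -0.32 to -0.23 and adjusted p from 0.00455 to 0.0317. Without TVA it was past the threshold under 13 of the 22, with adjusted p from 0.0164 to 0.105. Its exons overlap no other annotated gene.

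Mrpl43 (chr19:45005014-45006442, minus strand) encodes a large subunit protein of the mitochondrial lineage. Its levels were 38.8, 39.1 and 39.1 FPKM in siNTC, 38.8, 36.1 and 34.2 FPKM in siNTC + TVA, 35.1, 35.9 and 33.3 FPKM in siCreb1 and 29.8, 32.5 and 32.4 FPKM in siCreb1 + TVA. The siCreb1 + TVA libraries were the lowest 3 of the 12. Mrpl43 fell with siCreb1 in the presence of TVA (-0.20 ± 0.05, adjusted p = 0.0264) and without it (-0.16 ± 0.05, adjusted p = 0.0490), and these calls were kept under 14 and 6 of the 22 settings. 33.4% of its exon bases are shared with Twnk, the gene of the mitochondrial DNA helicase, on the opposite strand. Whether reads were counted by strand is not given in the sources used here.

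Mrpl9 (chr3:94443318-94451130, plus strand), a large subunit protein with a bacterial counterpart, was at 28.1, 30.6 and 33.4 FPKM in siNTC, 33.7, 32.6 and 31.7 FPKM in siNTC + TVA, 28.7, 29.4 and 28.6 FPKM in siCreb1 and 26.3, 29.6 and 28.1 FPKM in siCreb1 + TVA. It fell with siCreb1 in the presence of TVA (-0.22 ± 0.06, adjusted p = 0.0399), where the groups did not overlap, and the call was kept under 7 of 22 settings. Without TVA the groups overlapped (-0.08 ± 0.06, adjusted p = 0.398).

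Mrpl18 (chr17:12911349-12916345, minus strand) encodes the large subunit protein whose bacterial counterpart holds 5S ribosomal RNA. It was at 32.8, 33.3 and 35.9 FPKM in siNTC, 39.6, 38.6 and 39.1 FPKM in siNTC + TVA, 33.7, 38.5 and 36.1 FPKM in siCreb1 and 36.3, 33.0 and 32.4 FPKM in siCreb1 + TVA. The siNTC + TVA libraries were the 3 highest of the 12, above all other groups. With TVA it fell with siCreb1 (-0.20 ± 0.05, adjusted p = 0.0419), a call kept under 9 of 22 settings, and without TVA its difference was 0.08 ± 0.05 (adjusted p = 0.364).

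Mrpl40 (chr16:18872018-18876862, minus strand), a large subunit protein of the mitochondrial lineage, was also highest in siNTC + TVA. Its levels were 19.8, 19.5 and 18.8 FPKM in siNTC, 21.1, 20.7 and 21.6 FPKM in siNTC + TVA, 19.9, 19.0 and 18.3 FPKM in siCreb1 and 18.5, 19.8 and 18.8 FPKM in siCreb1 + TVA. It fell with siCreb1 in the presence of TVA (-0.15 ± 0.04, adjusted p = 0.0367; kept under 8 of 22 settings).

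Mrpl24 (chr3:87919506-87923672, plus strand), a large subunit protein with a bacterial counterpart, was the 1 member called higher by limma over the 12 libraries in the 5 comparisons, with Mrpl18 called higher with TVA in siNTC cells under other settings given below. It stood at 36.7, 38.0 and 40.1 FPKM in siNTC, 35.9, 37.6 and 34.8 FPKM in siNTC + TVA, 39.8, 38.0 and 39.8 FPKM in siCreb1 and 38.7, 40.1 and 41.8 FPKM in siCreb1 + TVA. With TVA it rose with siCreb1 (0.15 ± 0.04, adjusted p = 0.0433; kept under 9 of 22 settings). The siNTC + TVA group had the lowest mean and overlapped siNTC, and 26.3% of the exon bases of Mrpl24 are shared with Rrnad1 on the opposite strand. The 6 called genes all encode large subunit proteins.

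**Figure D4:**
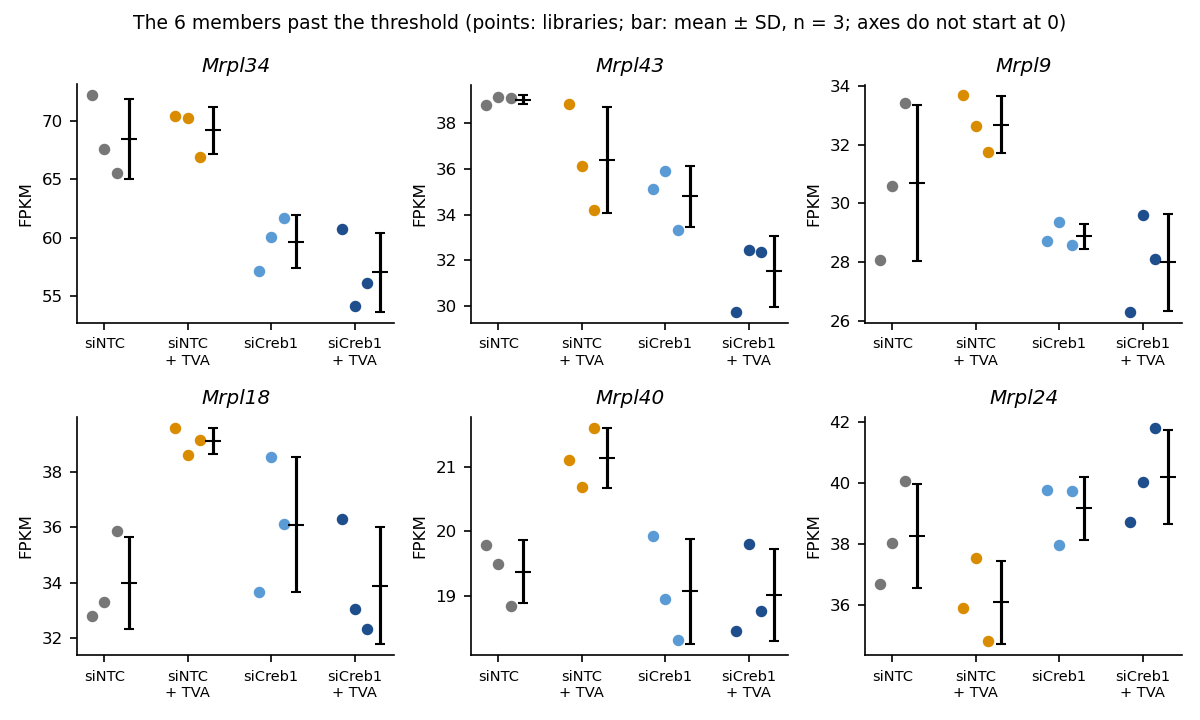
FPKM of the 6 members past the threshold in the 12 libraries, with each library as a point and the mean ± SD of 3 libraries as a bar; the vertical axes differ and do not start at 0. Mrpl34 is lower in all 6 siCreb1 libraries, Mrpl18 and Mrpl40 are highest in siNTC + TVA, and the mean of Mrpl24 is lowest there.

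Without TVA, Creb1 knockdown (siCreb1 against siNTC) lowered 2 members, Mrpl34 and Mrpl43, and raised none. That is 2 of 77, where 13.7% of all genes tested were called. At an unadjusted p under 0.05, 11 members were lower and 0 higher. That is 14.3% of members, against a background of 28.1% of genes, both directions together. The nearest to the threshold was Mrpl57 (chr14:57826234-57829296), a large subunit protein of the mitochondrial lineage, with 14.0, 15.5 and 15.2 FPKM in siNTC and 13.3, 13.2 and 11.1 FPKM in siCreb1 (-0.23 ± 0.08, adjusted p = 0.0646). The median of members was -0.02 and of all genes tested -0.001. Rescaling to TPM turned the members' median to 0.02, with that of all genes at 0.04, and left no member called. The count was 0 without siNTC replicate 2 or siCreb1 replicate 1, and 1 without siNTC replicate 1, siNTC + TVA replicate 2 or siCreb1 + TVA replicate 2.

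TVA in siNTC cells (siNTC + TVA against siNTC) called 0 of 77 members by limma, where 7.38% of all genes tested were called. At an unadjusted p under 0.05, 7 members were higher and 0 lower. That is 9.09% of members, against a background of 20.9% of genes, both directions together. limma-voom on the recovered reads called 1 of 77 members, Mrpl18, where it called 1015 of all 11550 genes tested. By limma-voom 6 members were higher and 0 lower at an unadjusted p under 0.05. The 3 nearest members, which missed the threshold, were Mrpl18 (0.20 ± 0.05, adjusted p = 0.0559), Mrpl40 (0.12 ± 0.04, adjusted p = 0.0932) and Mrpl35 (0.19 ± 0.06, adjusted p = 0.109). Mrpl35, a large subunit protein with a bacterial counterpart, was at 5.43, 5.32 and 5.30 FPKM in siNTC and 6.21, 6.69 and 5.81 FPKM in siNTC + TVA, without overlap. Mrpl18 passed the threshold under 6 of 22 settings, among them without siNTC replicate 3, siCreb1 replicate 1, siCreb1 replicate 2 or siCreb1 + TVA replicate 1. Without siNTC replicate 1, 1 other member, Mrpl2, was called, and it was lower. The members' median was 0.01 and that of all genes tested -0.01.

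TVA in siCreb1 cells (siCreb1 + TVA against siCreb1) called 0 of 77 members by limma and 0 by limma-voom. Over all 11550 genes tested, limma called 0.537% and limma-voom 155 genes. At an unadjusted p under 0.05, 1 member was higher and 5 lower by limma, and 3 were higher and 1 lower by limma-voom. By limma that is 7.79% of members, against a background of 9.58% of genes, both directions together. Nearest were Mrpl43 (-0.14 ± 0.05, adjusted p = 0.367), Mrpl27 (-0.15 ± 0.05, adjusted p = 0.409) and Mrps22 (0.16 ± 0.06, adjusted p = 0.430). Mrpl27, a large subunit protein with a bacterial counterpart, was at 21.5, 22.3 and 21.2 FPKM in siCreb1 and 18.6, 21.0 and 18.8 FPKM in siCreb1 + TVA. Mrps22, a small subunit protein of the mitochondrial lineage, was at 3.80, 3.72 and 3.50 FPKM and then at 4.11, 4.11 and 4.40 FPKM. Neither pair of groups overlapped, and no call was made for these genes.

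Whether the TVA difference depended on Creb1 was tested by the interaction, the TVA difference in siCreb1 cells minus that in siNTC cells. It was called for 0 of 77 members by limma and 0 by limma-voom. Over all 11550 genes tested, limma called 2.24% and limma-voom 446 genes. At an unadjusted p under 0.05, 1 member was positive and 5 negative by limma, and 1 was positive and 3 negative by limma-voom. By limma that is 7.79% of members, against a background of 14.3% of genes, both directions together. Mrpl18 was nearest (-0.29 ± 0.08, adjusted p = 0.0992, with 0.0571 to 0.241 over the alternatives), followed by Mrpl28 (-0.23 ± 0.08, adjusted p = 0.220) and Mrps5 (-0.14 ± 0.06, adjusted p = 0.275). For Mrpl28 and Mrps5, a large and a small subunit protein with bacterial counterparts, the TVA differences were 0.11 and 0.07 in siNTC cells and -0.12 and -0.07 in siCreb1 cells. The comparisons share libraries (siNTC + TVA enters 3 of the 5), so the similar size of the Mrpl18 differences in them is not independent evidence.

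The precision bounds these results. The median SE of a member was 0.062 on the log2 scale for each pairwise difference, so that a 95% interval reached about 0.138 to either side. The largest absolute difference that any member's 95% interval reached was 0.41 for TVA in siNTC cells, 0.44 for TVA in siCreb1 cells, 0.47 for siCreb1 without TVA, 0.44 for siCreb1 with TVA and 0.64 for the interaction. Differences beyond these sizes lay outside the interval of every tested member.

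By subunit, the 50 tested large subunit genes held all 6 members called with siCreb1 in the presence of TVA. The 26 tested small subunit genes held 0 by limma and by limma-voom. Over all 11550 genes tested, limma called 10.1% and limma-voom 1536 genes there. The difference between the subunits in called genes was not tested, and at an unadjusted p under 0.05 4 small subunit genes were lower and 0 higher. Their medians were close, at -0.07 for the large and -0.08 for the small subunit, with 38 of 50 and 20 of 26 genes below 0. Without TVA the medians were -0.02 and -0.03. Genes with a bacterial counterpart and genes of the mitochondrial lineage also had close medians with TVA, at -0.07 over 46 genes (1 called up, 3 down) and -0.08 over 30 genes (0 up, 2 down).

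Several members do something other than their symbol says. Mrps18a and Mrps30 carry small subunit names but sit in the large subunit, and with siCreb1 in the presence of TVA they differed by 0.05 ± 0.08 (adjusted p = 0.737) and -0.11 ± 0.07 (adjusted p = 0.315). Mrps18b and Mrps18c, the other members of the Mrps18 family, are small subunit proteins. Mrps18b was at 7.91, 8.53 and 6.81 FPKM in siNTC and 5.77, 6.17 and 6.86 FPKM in siCreb1 (-0.27 ± 0.09, adjusted p = 0.0894), groups that overlap, and 30.5% of its exon bases are shared with another gene. The Mrps18c difference without TVA was 0.07 ± 0.07 (adjusted p = 0.533). Mrps36 is now known as a component of the 2-oxoglutarate dehydrogenase complex rather than of the ribosome. Its 95% interval for the interaction reached furthest among members (-0.30 ± 0.15, adjusted p = 0.401), with 13.8, 17.7 and 19.8 FPKM already in the siNTC libraries.

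Mrpl12, a stalk protein that has also been reported to bind the mitochondrial RNA polymerase, was at 28.3, 26.9 and 27.4 FPKM in siNTC and 22.1, 26.8 and 23.4 FPKM in siCreb1. These groups did not overlap, yet the difference missed the threshold without TVA (-0.19 ± 0.06, adjusted p = 0.0705) and with it (-0.19 ± 0.06, adjusted p = 0.0777). Mrpl58, a peptidyl-tRNA hydrolase built into the large subunit that rescues stalled ribosomes, differed by -0.14 ± 0.07 with TVA in siNTC cells (adjusted p = 0.315). Mrpl11, a stalk-base protein, and Mrps27, a small subunit protein of the mitochondrial lineage that binds RNA, differed by at most 0.12 in absolute size in any of the 5 comparisons, none of them called.

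The promoters of the genes above were compared with RefSeq sequence (GRCm38.p6), taken from 250 bases before to 50 bases after the start site; 69 of the 78 members matched by symbol. The stretches shown are those of the called genes with an exon-free upstream stretch of useful length, and of Mrpl16, which carries the full CRE. Each lies wholly outside annotated exons and is written 5′ to 3′ on the strand of the gene, and capitals mark the motifs searched, on either strand. In Mrpl34 (chr8:71464806-71464925) the capitals are the CRE core TGACG, read on the other strand, 66 bases before the start. In Mrpl43 (chr19:45006443-45006557) they are the GABP/ETS motif ACTTCCGG on the other strand, 12 bases before the start. In Mrpl9 (chr3:94443198-94443317) they are the NRF1 motif GCATGCGC on both strands, 28 and 26 bases before the start. Mrpl24 (chr3:87919386-87919505), the gene that rose, holds none of the motifs. In Mrpl16 (chr19:11770271-11770390) they are the CRE TGACGTCA, 49 bases before the start, and another CRE core, 79 bases before it.
Mrpl34: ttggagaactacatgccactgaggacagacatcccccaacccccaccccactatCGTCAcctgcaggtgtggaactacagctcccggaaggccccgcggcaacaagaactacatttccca
Mrpl43: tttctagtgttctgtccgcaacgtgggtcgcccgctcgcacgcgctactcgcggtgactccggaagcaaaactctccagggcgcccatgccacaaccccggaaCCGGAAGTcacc
Mrpl9: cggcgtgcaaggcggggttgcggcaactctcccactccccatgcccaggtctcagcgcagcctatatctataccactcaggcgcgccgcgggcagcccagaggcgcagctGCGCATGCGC
Mrpl24: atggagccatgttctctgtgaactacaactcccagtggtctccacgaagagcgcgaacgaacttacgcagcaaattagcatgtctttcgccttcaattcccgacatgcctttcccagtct
Mrpl16: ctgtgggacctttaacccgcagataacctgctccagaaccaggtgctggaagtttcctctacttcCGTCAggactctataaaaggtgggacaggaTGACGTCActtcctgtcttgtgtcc

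The full CRE TGACGTCA, which is its own reverse complement, stood in the promoters of 2 of 69 members (2.90%), Mrpl16 and Mrpl49, against 2.03% of all 27025 genes with a promoter. Neither gene was called: with siCreb1 the differences were -0.08 ± 0.07 (adjusted p = 0.468) and 0.01 ± 0.08 (adjusted p = 0.954) without TVA, and -0.07 ± 0.07 (adjusted p = 0.557) and -0.11 ± 0.08 (adjusted p = 0.392) with TVA. These 2 genes were named after their promoters were read. The shorter core TGACG, which the full CRE contains, stood in 29 members (42.0%, against 23.1% of genes), among them Mrpl34 and Mrpl43. The 27025 genes are more than the 11550 tested and were not matched to members for expression or base content. Enrichment was not tested, and none is read from these shares. With siCreb1 in the presence of TVA the median difference was -0.09 over the 29 members with the core and -0.07 over the 39 tested members without it, with 2 and 4 called. Without TVA the medians were -0.01 and -0.03.

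Motifs known from promoters of nuclear genes for mitochondrial proteins were also present. The GABP/ETS motif ACTTCCGG stood in 12 members (17.4%, against 4.31% of genes), and the YY1 motif AAGATGGC in 12 (17.4%, against 3.19%). The NRF1 motif GCATGCGC stood in 8 (11.6%, against 3.05%), and the E-box CACGTG, its own reverse complement, in 5 (7.25%, against 8.09%). With siCreb1 in the presence of TVA the median differences were -0.07 over the 12 members with the GABP/ETS motif, -0.07 over the 12 with the YY1 motif, -0.06 over the 8 with the NRF1 motif and -0.09 over the 5 with the E-box, all near the median of -0.07 over the 68 tested members searched. A match is a run of letters and not a shown binding site. The shares of genes are over the same 27025 genes, not matched to members, and enrichment was not tested.

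Many members share a promoter region with a neighbour read the other way. 33 of the 78 members have a protein-coding gene on the opposite strand whose annotated start lies within 1000 bases, and in 2 of them, Mrpl46 and Mrps11, each is the neighbour of the other. Of the 31 members next to a gene that is no member, 28 could be tested together with that gene. Across these 28 pairs the differences of member and neighbour had a Pearson r of 0.01 for TVA in siNTC cells, 0.36 for TVA in siCreb1 cells, 0.04 for siCreb1 without TVA, 0.14 for siCreb1 with TVA and 0.20 for the interaction, given as a description over genes that are no replicates. Neighbours were called in 3 pairs (10.7%) for TVA in siNTC cells, where 7.38% of all genes tested were called, and in 0 for TVA in siCreb1 cells (0.537% of all genes). They were called in 3 (10.7%) for siCreb1 without TVA (13.7% of all genes), 4 (14.3%) for siCreb1 with TVA (10.1%) and 1 (3.57%) for the interaction (2.24%). With so few pairs these shares are close to those of all genes, and nothing is read from them.

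In single pairs the values of both genes can be set side by side. The annotated starts of Mrpl51 and Ncapd2 are 100 bases apart. Mrpl51 encodes a large subunit protein and Ncapd2 a subunit of condensin, which compacts chromosomes for mitosis. Ncapd2 was at 29.8, 28.6 and 26.8 FPKM in siNTC, 37.6, 38.2 and 40.4 FPKM in siNTC + TVA, 36.5, 35.7 and 37.5 FPKM in siCreb1 and 38.0, 37.7 and 36.8 FPKM in siCreb1 + TVA, so that the siNTC libraries lay below all others. It rose with TVA in siNTC cells (0.44 ± 0.04, adjusted p = 8.33e-05) and with siCreb1 without TVA (0.36 ± 0.04, adjusted p = 0.000454). Mrpl51 was at 9.66, 8.99 and 8.23 FPKM in siNTC and 8.58, 9.51 and 8.84 FPKM in siNTC + TVA, groups that overlap, and its differences in the same comparisons were 0.00 and 0.04.

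For the other called neighbours, Twnk excepted, the member was not called either; whether member and neighbour differed was not tested. Ska3, a kinetochore gene whose start lies 49 bases from that of Mrpl57, rose by 0.43 ± 0.08 with TVA in siNTC cells (adjusted p = 0.0107) while Mrpl57 differed by -0.08. Fau, which encodes a cytosolic ribosomal protein and starts 59 bases from Mrpl49, fell by 0.19 with siCreb1 without TVA (adjusted p = 0.0158) while Mrpl49 differed by 0.01. Helq, a DNA helicase gene 29 bases from Mrps18c, rose with siCreb1 by 0.18 without TVA and by 0.18 with it (adjusted p = 0.0196 and 0.0254). Pnpla7, next to Mrpl41, fell by 0.20 with TVA in siNTC cells (adjusted p = 0.0150). With siCreb1 in the presence of TVA, Gga3 next to Mrps7 rose by 0.22 (adjusted p = 0.0131) and Ndufb5, a complex I gene next to Mrpl47, fell by 0.19 (adjusted p = 0.00785). Mrps7 shares exon bases with Gga3, and Mrpl47 with Ndufb5, on opposite strands, so their values may not be separate.

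Mrpl43 and Twnk were the only pair with both genes called in the same comparison, and in opposite directions. Twnk was at 7.20, 7.36 and 6.77 FPKM in siNTC + TVA and 8.10, 8.64 and 8.85 FPKM in siCreb1 + TVA, a rise of 0.23 ± 0.06 (adjusted p = 0.0271), while Mrpl43 fell by 0.20. The genes share exon bases, as given above.

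**Figure D5:**
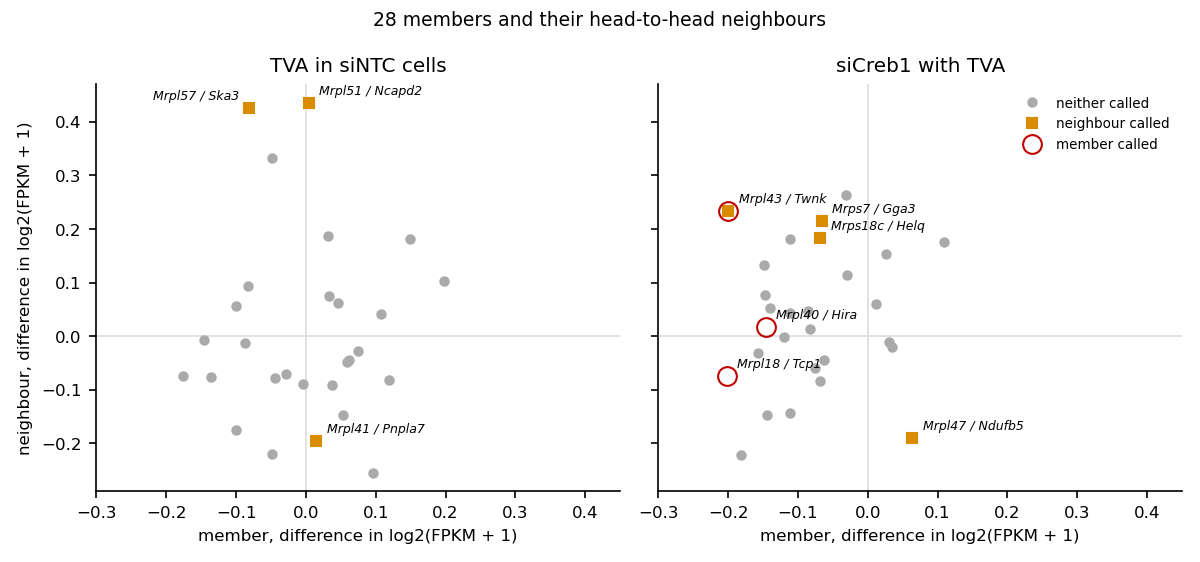
Difference in log2(FPKM + 1) of 28 members (horizontal) and of their head-to-head neighbours (vertical), for TVA in siNTC cells (left) and siCreb1 with TVA (right); orange squares are called neighbours, red circles called members. Ncapd2 (0.44) pairs with a member near 0, and Mrpl43 and Twnk lie on opposite sides of 0.

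Lists of genes that work with the mitochondrial ribosome are small, and their counts are to be read against the 13.7% of all genes tested that limma called for siCreb1 without TVA and the 10.1% for siCreb1 with TVA. limma-voom called 1974 and 1536 of all 11550 genes in these comparisons. The 5 ribosomal proteins with other symbols (Dap3, Ptcd3, Chchd1, Aurkaip1 and Gadd45gip1) held 0 calls by limma or limma-voom in any of the 5 comparisons, with up to 2 at an unadjusted p under 0.05. Of 14 tested translation factors, 1 was called by limma and by limma-voom: Mtif3, an initiation factor, fell with siCreb1 without TVA from 3.78, 4.01 and 3.58 FPKM to 3.12, 3.01 and 3.09 FPKM (-0.23 ± 0.05, adjusted p = 0.0158). Of 25 tested genes for ribosome assembly and ribosomal RNA modification 0 were called by limma in any comparison, with up to 4 at an unadjusted p under 0.05, and limma-voom called 1, Nsun4, higher with siCreb1 in the presence of TVA.

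Of 20 tested genes for mitochondrial tRNA charging, 1 was called by limma: Tars2, the threonyl-tRNA synthetase, rose with siCreb1 in the presence of TVA from 7.91, 8.05 and 7.64 FPKM to 9.17, 9.18 and 9.52 FPKM (0.22 ± 0.05, adjusted p = 0.0155). limma-voom called Tars2 and also Cars2, the cysteinyl-tRNA synthetase, whose difference there by limma was 0.15 ± 0.05 (adjusted p = 0.107). Of 13 tested genes for mitochondrial DNA transcription and replication, 1 was called by limma and by limma-voom, which was Twnk. The 15 genes encoded in mitochondrial DNA, the templates of this ribosome and its ribosomal RNAs, held 0 calls and 0 genes at an unadjusted p under 0.05 by limma in all 5 comparisons, and 0 calls by limma-voom. Their medians ran from -0.02 to 0.03. Single genes ran from -0.40 for TVA in siCreb1 cells to 0.33 for siCreb1 without TVA, so the absence of calls does not show that they were unchanged.

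Calls in 2 other large gene groups are given beside those of members. With siCreb1 in the presence of TVA, where limma called 10.1% of all genes tested, 23 of 80 tested cytosolic ribosomal protein genes and 18 of 78 tested nuclear oxidative phosphorylation genes fell and 0 rose by limma, with medians of -0.09 and -0.12, against 5 falls and 1 rise among 77 members with a median of -0.07. By limma-voom 34 and 16 fell and 0 rose, against 4 falls and 1 rise among members, where 1536 of all 11550 genes tested were called. Without TVA, where 13.7% of all genes were called, 15, 8 and 2 fell and 0 rose in the same order by limma. By limma-voom 19, 7 and 1 fell and 4, 1 and 0 rose, where 1974 of all 11550 genes were called. With TVA in siNTC cells limma called 7.38% of all genes and limma-voom 1015 of 11550. In this comparison 8 cytosolic ribosomal protein genes fell and 0 rose by limma (14 and 1 by limma-voom, median -0.04). There 2 oxidative phosphorylation genes rose and 1 fell by limma (6 and 1 by limma-voom; median 0.06), and members had 0 calls by limma and 1 rise by limma-voom (median 0.01). For TVA in siCreb1 cells and for the interaction limma called 0 genes in each of the 3 groups, with 43, 8 and 5 lower and 0, 0 and 1 higher at an unadjusted p under 0.05 for the former, and 6, 12 and 5 lower and 2, 1 and 1 higher for the latter. limma-voom called 12, 0 and 0 genes for the former and 3, 1 and 0 for the latter, all lower. Over all 11550 genes tested, limma called 0.537% and 2.24% and limma-voom 155 and 446 genes in the same order. By limma 9.58% and 14.3% of all genes had an unadjusted p under 0.05, both directions together. The differences between these groups were not tested.

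Length and difference were compared over the 77 members, as a description across genes. Spearman's rho was 0.35 for siCreb1 with TVA, 0.32 for TVA in siCreb1 cells, 0.19 for siCreb1 without TVA, 0.12 for TVA in siNTC cells and 0.11 for the interaction. Over all 11550 genes tested it was 0.14, 0.08, 0.05, -0.0054 and 0.05 in the same order. The 39 members of at most the median length had a median of -0.09 with siCreb1 in the presence of TVA (1 called up, 4 down), and the 38 longer ones -0.06 (0 up, 1 down). With the trend on length removed from each library, 2 members were called there, Mrpl34 lower and Mrpl24 higher, while the members' median was -0.0679 against -0.0723 before.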

How the data were processed

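The authors sequenced total RNA of 12 samples and deposited a table of FPKM per gene for each library. The build named in the submitters' processing notes is GRCm38 (mm10). The aligner, the counter and the use of strand are not given in the sources used here. For the analysis of the RNA-seq data the study's methods refer to earlier work, not used here, and for its data in general they name an unpaired two-sided Student's t-test, which was not used here. FPKM times gene length came in whole multiples of a step fixed for each library for at least 99.995% of values above 0 (within 0.1 of a whole number), and these multiples were taken as reads. From the values deposited, log2(FPKM + 1) of the 11550 genes with a mean of at least 1 FPKM was fitted with limma 3.58.1 (R 4.3.3, lmFit, contrasts.fit and eBayes with a mean-variance trend), with 4 group means and no covariate. p-values are two-sided and adjusted by Benjamini-Hochberg over all genes tested, with calls at 0.05, and differences are on the log2(FPKM + 1) scale, which understates changes of low genes. The fit was also run on simulated counts with the same dispersion for every gene. That run does not show how the fit performs at the spread of these data.

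The members and lists were chosen with earlier results of these data known. Named members were those called in a comparison (or the 3 of smallest p where fewer than 3 were called), the 5 highest and 5 lowest, any at 0, and 9 of unusual role or name. From the related lists, genes past the threshold were named. Alternatives were a pseudocount of 0.1, no filter beyond a value above 0, a mean of at least 5 FPKM, quantile normalization, TPM, removal of the trend on length, limma-voom on the reads so recovered, the replicate number as a block, no trend of variance on mean, only the libraries compared, and leaving out each library. Counting only members that share no exon base with another gene was added after seeing the data. Exons came from GENCODE vM21 and promoters from RefSeq (GRCm38.p6). Same-numbered libraries of different groups did not deviate together (mean correlation -0.01, range -0.06 to 0.06, over 18 pairs), so the numbers were not taken as pairs. 1 marker of the list of other cells is not reported here.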

Additional observations from a re-analysis of the deposited data

Results flagged for a closer look

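The difference with TVA depended on Creb1 knockdown for Ncapd2, the condensin gene next to Mrpl51, by the interaction term (-0.40 ± 0.06 SE, adjusted p = 0.00513 by limma over all genes tested): TVA gave 0.44 in siNTC cells and 0.04 in siCreb1 cells, with 3 libraries in each group. Without TVA, siCreb1 also raised Ncapd2, by 0.36 ± 0.04 (adjusted p = 0.000454 by limma). Ncapd2 stood at 35.7 to 37.5 FPKM in siCreb1 and at 37.6 to 40.4 FPKM in siNTC + TVA. The interaction of Mrpl51 itself was -0.11 ± 0.09 (adjusted p = 0.666). Groups of 3 libraries were not searched for single libraries that stand apart.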

How the results depend on the processing

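The median difference of members kept its direction under the alternatives run, except for siCreb1 without TVA, where rescaling to TPM gave 0.0215. The median of all genes tested there was 0.0434. TPM also moved the members' median to -0.0266 for siCreb1 with TVA, with all genes at 0.0370. For siCreb1 without TVA, limma-voom on recovered reads moved the members' median to -0.00395, with all genes at 0.0180. In each of these settings the members' median stayed below that of all genes. Counts of called members changed more. For siCreb1 with TVA (6), the count was 1 with no filter on low values, and 2 with quantile normalization, TPM, the trend on length removed, the replicate block, no mean-variance trend or only members that share no exon base with another gene. For siCreb1 without TVA (2), it was 0 with no filter, quantile normalization or TPM, and 1 with the trend on length removed, no mean-variance trend, limma-voom, only the libraries compared or members without shared exon bases. For TVA in siNTC cells (0), it was 1 with a mean of at least 5 FPKM or limma-voom. The replicate block left the counts of the other 4 comparisons as they were, with Mrpl57 called in place of Mrpl43 for siCreb1 without TVA, and 4 of 12 libraries correlated best with a library of their own number. Leaving out each library in turn gave 0 to 1 calls for TVA in siNTC cells, 0 for TVA in siCreb1 cells, 0 to 2 for siCreb1 without TVA, 1 to 8 for siCreb1 with TVA and 0 for the interaction. The causes were not tested, except that the setting with no filter tests more genes. No difference of a named member that was called changed sign. The SD of the members' median between libraries of a group was 0.019, larger than the median difference for TVA in siNTC cells (0.0140). Depth limits members with few reads most, down to 167 in a library.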
